A study of Rattus norvegicus with 6 samples.

Results

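Acta2, Myl9, Myh9, Tpm1, Tpm2 and Lmod1 are 6 genes of the contractile actin cytoskeleton, described here in rat cortical astrocytes grown as a tissue-engineered rostral migratory stream (TE-RMS) or as a planar culture. They were chosen by name from the study's published list that pairs identifiers with gene names, read for its first 1517 genes, those ranked foremost by p-value for TE-RMS against planar astrocytes. All 6 names were paired, and the 6 are among 23940 genes of the deposited count table and 16331 genes with enough counts to test. Because the p-values of the same contrast selected the list, the difference between TE-RMS and planar astrocytes is given for these genes as a description and not as a test. Differences between the experimental runs were not used to choose them and are tested. The p-values of the list come from a fit that paired the runs, however, so the choice is not wholly separate from this test. The share among the 1517 genes read is therefore given beside it.

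Astrocytes from the cortex of Sprague-Dawley pups at postnatal day 0 to 1 were used at passage 4. For planar cultures they were plated on collagen in wells. For TE-RMSs they were seeded into agarose microchannels with collagen, where they bundle into aligned cords. Both kinds were harvested at day 4 in vitro, in the same culture medium, and the experiment was run 3 times with astrocytes of different animals, giving 1 library of each kind per run and 6 libraries in all. Runs carry dates as labels, and are named July, September and October below. Each TE-RMS library was a pool of TE-RMSs made on 3 successive days, picked for tight bundling and kept frozen in a preservative. Planar cultures were plated on the last of these days and extracted fresh. Culture format, selection, preservation and pooling over days thus cannot be told apart. The planar libraries held 70682593 (July), 70478784 (September) and 56483332 (October) counts, and the TE-RMS libraries 54601354, 77277336 and 64537115, so neither kind was deeper in every run. In bulk RNA, fewer cells of a type and less RNA per cell cannot be told apart.

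Contractile force in non-neuronal cells comes from bundles of actin filaments pulled together by myosin II, a motor made of heavy chains, essential light chains and regulatory light chains. Acta2 encodes smooth-muscle alpha-actin, which marks smooth muscle and activated, stress-fiber-bearing cells such as myofibroblasts. Myh9 encodes the heavy chain of non-muscle myosin IIA, and Myl9 encodes a regulatory light chain whose phosphorylation by myosin light chain kinase switches the motor on. Tpm1 and Tpm2 encode tropomyosins, coiled coils that lie along the actin filament and control access of myosin to it, and Lmod1 encodes leiomodin 1, which nucleates actin filaments and is best known from smooth muscle. Many genes of this kind are targets of the serum response factor SRF and its cofactors, which respond to the state of actin.

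In each of the 3 runs all 6 genes had fewer normalized reads (CPM, counts scaled to library size after TMM normalization) in the TE-RMS library than in its planar counterpart. Values are given below in the order July, September and October, and log2 fold changes with their standard error (SE). Log2 fold changes, TE-RMS over planar, ran from -6.64 for Acta2 to -1.57 for Tpm2, with a median of -2.04. The median was -0.77 over the 1517 genes read and -0.12 over all 16331 tested genes. A paired quasi-likelihood test in edgeR, blocked by run, called all 6 lower at an adjusted p threshold of 0.05, where 9.28% of the tested genes were called lower and 9.36% higher. Without the block 4 of the 6 were called, not Tpm2 or Lmod1. For 4 of the 6 genes every TE-RMS library lay below every planar library, as was the case for 16.1% of the tested genes and 45.5% of the 1517 genes read, and the libraries of Tpm2 and Lmod1 overlapped between conditions. Both counts rest on the contrast that chose the genes, and nothing is read from them. Together the 6 genes took 0.211%, 0.0957% and 0.132% of all counts in planar culture, and 0.0487%, 0.0343% and 0.0312% in TE-RMS culture.

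**Figure D1:**
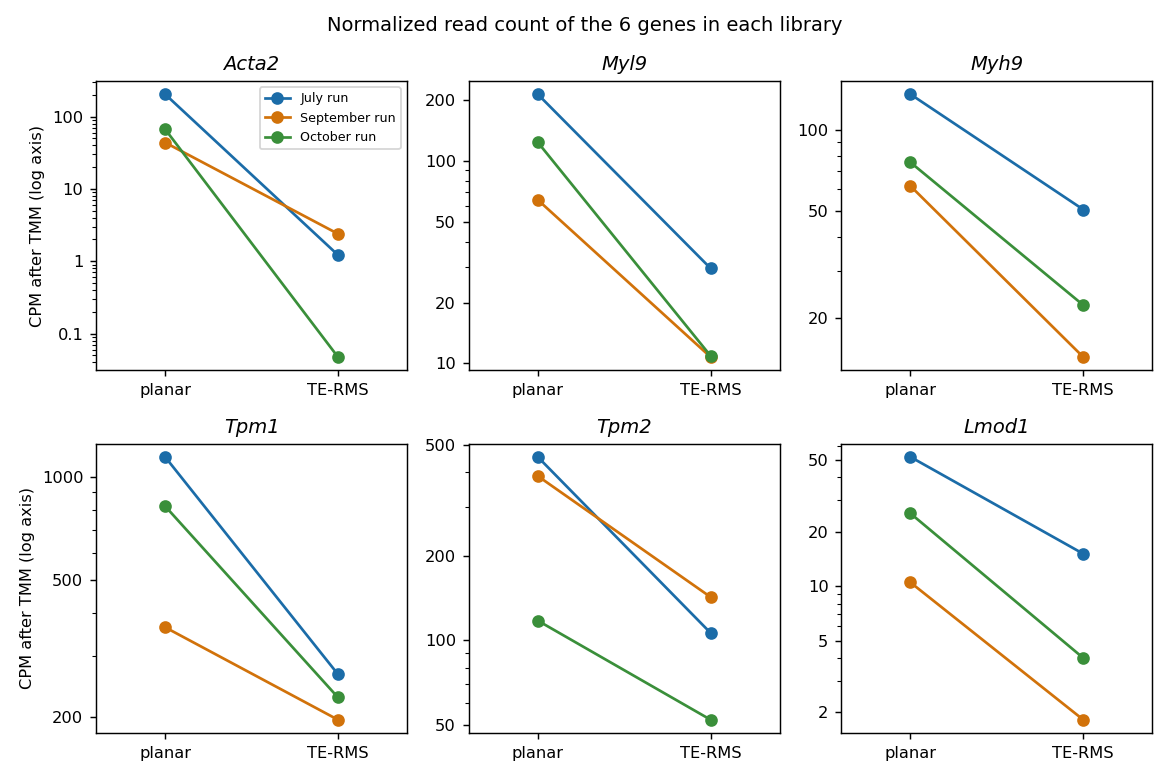
Normalized read count of each of the 6 genes (CPM after TMM, log axis, each panel with its own range) in the planar and TE-RMS library of each run, 1 point per library, with a line joining the libraries of one run. Every line runs downward from planar to TE-RMS, from 204 to 1.22 CPM for Acta2 in the July run and from 453 to 106 CPM for Tpm2, and the ranges of the conditions overlap for Tpm2 and Lmod1.

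Acta2 (ENSRNOG00000058039, chromosome 1 of mRatBN7.2 from 231746548 to 231759554, minus strand) had the lowest log2 fold change of the 6, the eighth-lowest value among the 1516 genes called lower. In planar astrocytes it had 13809 counts in July, 3170 in September and 4048 in October, and in TE-RMS astrocytes 69, 172 and 3 counts. After normalization these were 204, 43.8 and 67.0 CPM, a mean of 105 ± 86.6 (SD, n = 3), against 1.22, 2.39 and 0.0473 CPM, a mean of 1.22 ± 1.17. The conditions did not overlap, and the October TE-RMS library was at the floor of 3 counts used here for a value near 0. The level was 168-fold higher in the planar library in July (95% exact counting interval 132.4 to 215.7), 18.3-fold in September (15.7 to 21.5) and 1417-fold in October (484.5 to 6874). These intervals cover counting error only, and say nothing of the spread between cultures. The fitted log2 fold change was -6.64 (SE 0.75), and it was -8.19 with the September run left out, -5.68 without October and -6.17 without July.

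The RefSeq promoter table matched 4 of the 6 genes (Acta2, Myh9, Tpm1 and Tpm2). The 250 bases before the start of Acta2 (GRCr8, chr1:241172504-241172753, minus strand) are shown because this gene differed most and because its window holds letters close to the CArG box, the element that SRF binds. Capitals mark these matches and the MCAT core CATTCC, which TEAD factors bind, on either strand.

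Acta2: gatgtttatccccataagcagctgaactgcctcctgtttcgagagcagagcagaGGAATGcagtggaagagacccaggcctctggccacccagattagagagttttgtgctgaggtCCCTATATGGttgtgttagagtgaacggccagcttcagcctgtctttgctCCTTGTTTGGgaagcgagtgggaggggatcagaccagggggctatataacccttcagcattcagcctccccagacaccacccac

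The first base of CCCTATATGG lies 134 bases before the start, that of CCTTGTTTGG 84 bases and that of the MCAT core 196 bases. A CArG box in its strict form has 2 C, then 6 bases that are all A or T, then 2 G, and so reads alike on both strands. Both stretches shown have 1 C or G among the inner 6 bases. Up to 1 such base was allowed in the search, which 8.08% of 33469 RefSeq promoter windows of this length satisfied, and the strict form was found in 1.5% of windows and in none of the 4 genes. In a second search, added after the data were seen, 1 departure was allowed at any base of the box. It was satisfied by 18.7% of the windows and gave the same pair of stretches in Acta2. The MCAT core was found in 12.1% of all windows, on both strands together. CArG box and MCAT core did not overlap in these windows. A match of letters is a description and not a binding site, and the counts were made on mRatBN7.2 and not on this assembly.

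The reads of Acta2 can be shared with its close paralogs, since Salmon divides reads between similar transcripts by probability, and its level and that of Acta1 are uncertain to that extent. Acta1, the skeletal-muscle alpha-actin gene, had 745, 45 and 283 counts in planar culture against 5, 25 and 12 in TE-RMS culture. Its log2 fold change was -4.17 (SE 1.16), and its within-run ratios of -6.54, -0.79 and -4.42 had an SD of 2.91, against 2.79 for Acta2. The cytoplasmic actin genes Actb and Actg1, the bulk actins of non-muscle cells, were lower by less. Actb had a log2 fold change of -0.99 (SE 0.19) and Actg1 of -0.77 (SE 0.17), with ranges that overlapped between conditions. The ratio of Acta2 to Actb counts, not corrected for length, was 0.00521, 0.00239 and 0.00464 in planar culture and 6.86e-05, 0.00025 and 6.08e-06 in TE-RMS culture. The share of Acta2 among these actin reads was thus lower in the TE-RMS library of each run.

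Myl9 (ENSRNOG00000020246, chromosome 3 from 145281937 to 145288333, plus strand) had 214, 64.4 and 124 CPM in planar culture (134 ± 75.5, SD, n = 3) and 29.5, 10.7 and 10.9 CPM in TE-RMS culture (17.0 ± 10.8). The highest TE-RMS library, July, was below the lowest planar library, September. The log2 ratios within the runs were -2.86, -2.58 and -3.51, close to each other beside those of Acta2. Its log2 fold change was -2.98 (SE 0.21), a 7.91-fold lower level. Myl6, an essential light chain of the same motor, had a log2 fold change of -1.15 (SE 0.19). The ratio of Myl9 to Myl6 counts was 0.131, 0.0463 and 0.101 in planar and 0.0507, 0.0184 and 0.0144 in TE-RMS culture, so the regulatory light chain was lower relative to the essential one in each run.

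Myh9 (ENSRNOG00000049236, chromosome 7 from 109343706 to 109424457, minus strand) had 135, 61.8 and 75.7 CPM in planar culture and 50.5, 14.3 and 22.3 CPM in TE-RMS culture. All planar values lay above all TE-RMS values, although the September planar and July TE-RMS libraries were near each other. Its log2 fold change was -1.76 (SE 0.19), with -1.42, -2.11 and -1.76 within the runs. Myh10, the heavy chain of non-muscle myosin IIB, had 59.6, 33.2 and 46.1 CPM in planar culture and 21.1, 17.4 and 22.7 CPM in TE-RMS culture, a log2 fold change of -1.15 (SE 0.20). The ratio of Myh9 to Myh10 counts was 2.27, 1.86 and 1.64 in planar and 2.39, 0.823 and 0.985 in TE-RMS libraries. It was thus lower in TE-RMS astrocytes in September and October and not in July. In the RefSeq annotation of GRCr8 a small nuclear RNA gene lies within the span of Myh9 and a long non-coding RNA gene overlaps Lmod1, and the non-stranded kit cannot separate reads of genes on opposite strands.

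Tpm1 (ENSRNOG00000018184, chromosome 8 from 67635479 to 67662802, minus strand) had 1142, 365 and 821 CPM in planar culture and 266, 196 and 228 CPM in TE-RMS culture. Its TE-RMS libraries were close together and all below the planar ones, whose highest value was 3.13-fold the lowest, against 1.36-fold among the TE-RMS libraries. Its log2 fold change was -1.62 (SE 0.23), and the ratio within the run was -2.10 in July, -0.89 in September and -1.85 in October. The 250 bases before its start are shown for comparison with those of Acta2 (GRCr8, chr8:76543416-76543665, minus strand), with capitals at the MCAT core, read on the opposite strand as in Acta2.

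Tpm1: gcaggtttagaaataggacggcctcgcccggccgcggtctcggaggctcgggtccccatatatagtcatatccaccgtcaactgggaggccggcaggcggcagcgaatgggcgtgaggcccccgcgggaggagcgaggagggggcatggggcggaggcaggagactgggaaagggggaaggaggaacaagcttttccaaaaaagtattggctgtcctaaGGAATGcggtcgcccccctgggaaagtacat

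The core lies 31 bases before the Tpm1 start. The wider CArG search also found CCATATATAG, 195 bases before the Tpm1 start, and CCAAAAAAGT, 55 bases before it, each departing from the box among its outer bases and left in lower case above. No CArG box, strict or with 1 departure, and no MCAT core was in the window of Tpm2 or in either of the windows of Myh9, which says only that these letters are not in these windows. Of the bases shown, 54.0% are G or C in Acta2 and 62.4% in Tpm1.

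Tpm2 (ENSRNOG00000016731, chromosome 5 from 57770864 to 57779992, minus strand) had 453, 387 and 118 CPM in planar culture and 106, 143 and 52.1 CPM in TE-RMS culture. The October planar library lay below the September TE-RMS library, so the conditions overlapped, while within each run the TE-RMS library was lower, with ratios of -2.09, -1.44 and -1.18 on the log2 scale. Its log2 fold change was -1.57 (SE 0.20), close to that of Tpm1. The balance of the tropomyosins followed the run more than the culture format. The ratio of Tpm2 to Tpm1 counts was 0.396 in the planar and 0.400 in the TE-RMS library of July, 1.06 and 0.728 in September, and 0.143 and 0.229 in October, and no library of one run fell within the range of another run.

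Lmod1 (ENSRNOG00000051548, chromosome 13 from 46754033 to 46794900, plus strand) had 3512, 759 and 1528 counts in planar and 856, 131 and 254 counts in TE-RMS libraries, or 51.9, 10.5 and 25.3 CPM against 15.1, 1.82 and 4.00 CPM. The July TE-RMS library lay above the September planar library, so the conditions overlapped for this gene too. Its log2 ratios within the runs were -1.78, -2.51 and -2.65, and the fitted log2 fold change was -2.32 (SE 0.27).

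**Figure D2:**
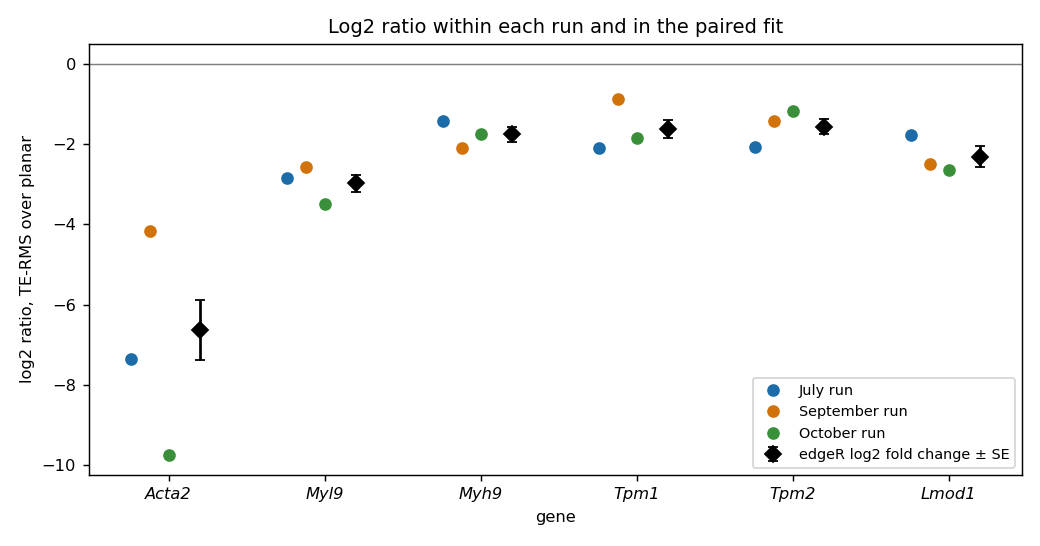
Log2 ratio of TE-RMS over planar level for each gene (horizontal axis) in each run (colored points) with the log2 fold change and standard error of the paired edgeR fit (black diamonds). All 18 within-run ratios are below 0, those of Acta2 spread from -9.75 to -4.18 and those of the other 5 genes lie between -3.51 and -0.89.

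Differences between runs were tested in a fit that also held the condition. They passed an adjusted p of 0.05 for 4 of the 6 genes in edgeR's quasi-likelihood test, namely Lmod1 (adjusted p = 0.00204), Tpm2 (0.00556), Myl9 (0.00596) and Myh9 (0.00636), against 3.21% of all tested genes (525 of 16331) and 11.8% of the 1517 genes read (179). They did not pass for Tpm1 (adjusted p = 0.139) or Acta2 (adjusted p = 0.370), whose TE-RMS values varied 50.6-fold, so a run difference was not shown for these. July was the highest planar library for all 6 genes, as for 33.9% of the tested genes. The order July, October, September held among the planar libraries for all but Tpm2 and among the TE-RMS libraries for Myl9, Myh9, Tpm1 and Lmod1. For Myl9 the October and September TE-RMS libraries were nearly equal, at 10.9 and 10.7 CPM. This order held in both conditions for these 4 genes and for 3.44% of the tested genes. It was picked from the levels of these same genes, so that share is not a test. With any order counted, both conditions shared the same one for 4 of the 6 genes and for 27.3% of the tested genes. Tpm2 was lowest in October in both conditions. Without the July run, Myl9 (adjusted p = 0.293), Myh9 (0.319) and Lmod1 (0.0825) did not pass the test between the remaining runs, nor did Tpm2 without October (0.875). Conversely, Acta2 passed without September (adjusted p = 1.58e-10) and in limma-voom (0.0121), and Tpm1 passed without July (0.0278) and in DESeq2 (0.0224).

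**Figure D3:**
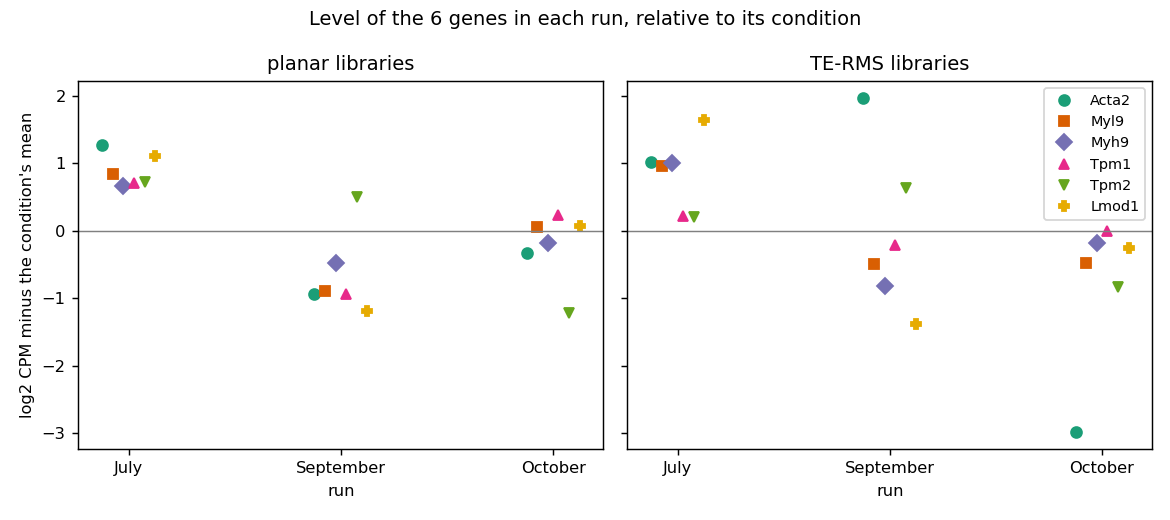
Log2 CPM of the 6 genes in each run minus the mean of the 3 libraries of the same condition, for planar (left) and TE-RMS (right) libraries, 1 marker per gene. July lies above 0 for every gene in both panels. September lies below 0 for Myl9, Myh9, Tpm1 and Lmod1 in both panels and above 0 for Tpm2.

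After each condition's mean was removed, Pearson's r between the log2 CPM of 2 of these genes over the 6 libraries ran from -0.144 to 0.979 over the 15 pairs. The highest values were between Myh9 and Lmod1 (0.979), Myl9 and Lmod1 (0.951) and Myl9 and Myh9 (0.917). Tpm2 gave between -0.144 and 0.121 with Tpm1, Myl9, Myh9 and Lmod1 and 0.640 with Acta2. These values describe 6 libraries that the genes share and are not tests. Tagln, which encodes the actin-binding transgelin, had the July, October, September order in both conditions, with adjusted p = 4.35e-05 between runs. Tagln2, a paralog of Tagln, had its lowest level in October, as Tpm2 did, at 37.4 CPM in planar culture and 21.5 CPM in TE-RMS culture (adjusted p = 0.00107 between runs). Cnn2 also had the July, October, September order in both conditions (adjusted p = 0.00464 between runs). Not all contractile genes had this order in both conditions. Cnn1 had it in planar culture, while its TE-RMS libraries lay close together, at 13.6, 11.4 and 14.2 CPM (adjusted p = 0.189 between runs). Actb ran July, September, October in both conditions (adjusted p = 0.0115). Actg1 had that order in planar culture but July, October, September in TE-RMS culture (adjusted p = 0.00528). Of the 16 other contractile genes that could be named, 5 passed this edgeR test between runs, against 11.8% of the 1517 genes read.

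By distance between gene-centered log2 CPM over the 6 libraries, the nearest of all tested genes to Myl9 were Synpo, Palldl1 and Vwa1 (0.76 to 0.83 log2 units, r from 0.982 to 0.989). Synpo encodes synaptopodin, an actin-binding protein. The nearest to Myh9 were Pcsk7 (0.33), Cnn2 (0.51) and Tln1 (0.53), of which Cnn2 encodes calponin 2 and Tln1 talin 1, which links integrins to actin. Tpm1 lay nearest to Hs6st1 (0.44) and Cavin3 (0.46), Tpm2 to Trim47 (0.54) and Lmod1 to Ntn1 (0.71), the netrin 1 gene. The nearest profile to Acta2, Zfp512b, was 3.28 log2 units away. This distance grows with the size of the change, and the 3 nearest genes to Acta2 were at 0 counts in the October TE-RMS library, where Acta2 itself had 3, so it is not set against those of the other genes. These distances include the difference between conditions that chose the 6 genes, and 4 of the 18 nearest genes have no name here.

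Of 59 other genes in lists of actins, myosin II chains, tropomyosins, tropomodulins and leiomodins, kinases and phosphatases of the light chain, thin-filament proteins and SRF with its cofactors, 16 could be named. All 16 were called lower in TE-RMS astrocytes and none higher, with a median log2 fold change of -1.48. Acta1 was not called without July, without October, or among genes with at least 10 counts in 3 libraries, Actb was not called in DESeq2 or without September, and Actg1 was not called without September. Without the run as a block 12 of the 16 were called, not Actb, Actg1, Ppp1r12c or Tagln2. The names exist for genes with small p-values in this contrast, so the count cannot stand for the families. Of all 1517 genes read, 762 were called lower and 751 higher. The remaining genes of the lists, among them Myh11, were not analysed here.

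Among the regulators, Rock2, a kinase that acts on the light chain and its phosphatase, had 674, 613 and 726 CPM in planar culture and 288, 296 and 191 CPM in TE-RMS culture, a log2 fold change of -1.40 (SE 0.20). Cdc42bpb, another kinase of the list, had a log2 fold change of -2.10 (SE 0.33). Ppp1r14a, which encodes the myosin phosphatase inhibitor CPI-17, had -1.83 (SE 0.38), its relative Ppp1r14c -0.89 (SE 0.16), and the phosphatase targeting subunit Ppp1r12c -1.43 (SE 0.29).

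Of the other thin-filament genes, Cnn1, the smooth-muscle calponin, had 315, 80.5 and 274 CPM in planar culture and 13.6, 11.4 and 14.2 CPM in TE-RMS culture, with a log2 fold change of -3.89 (SE 0.30). Tagln had -4.04 (SE 0.22), Cnn2 -1.97 (SE 0.17), Tagln2 -1.53 (SE 0.23) and Csrp1, a LIM-domain protein, -1.05 (SE 0.16). Srf itself had 18.7, 9.66 and 13.9 CPM in planar culture and 2.29, 1.25 and 2.46 CPM in TE-RMS culture. The conditions did not overlap for Srf, with a log2 fold change of -2.82 (SE 0.35), and a difference between runs was not shown for it (adjusted p = 0.442). Acta2, Tagln, Cnn1 and Acta1 had the lowest log2 fold changes of the 22 contractile genes named here.

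**Figure D4:**
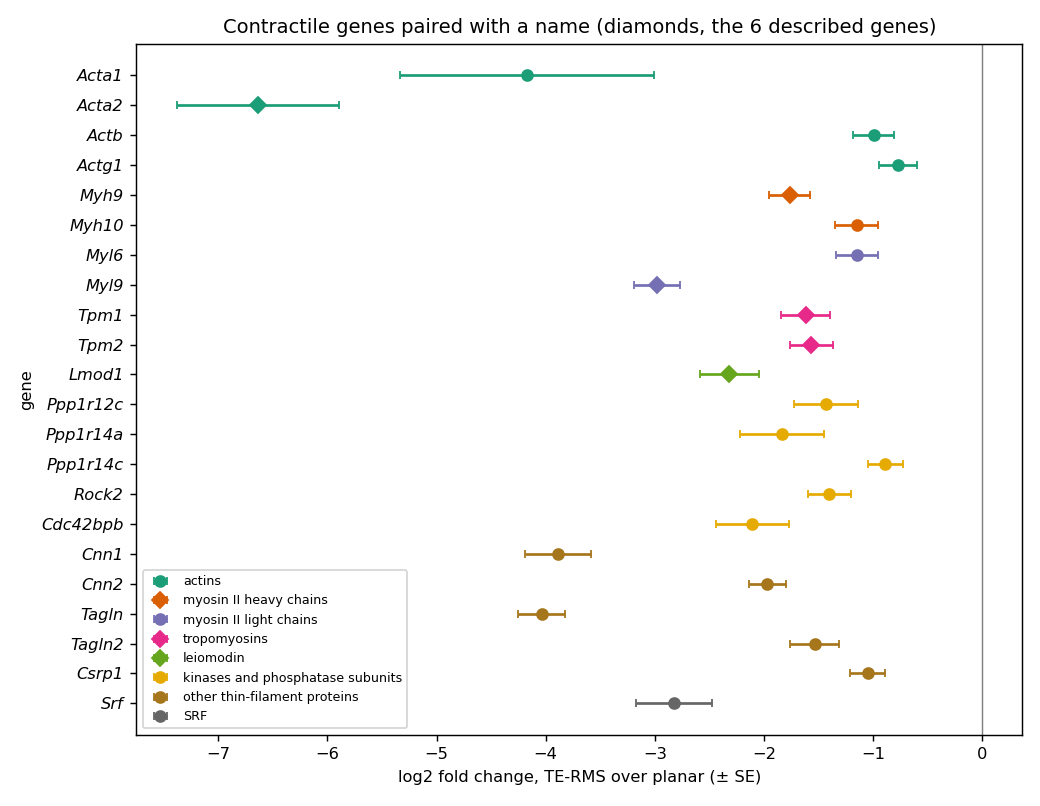
Log2 fold change of TE-RMS over planar astrocytes with its standard error (edgeR, run as a block) for the 22 named genes of the contractile lists, colored by list, with the 6 described genes as diamonds. All lie below 0, from -6.64 for Acta2 to -0.77 for Actg1.

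Markers of astrocytes and of other cells were set beside these values. They too have names here through the genes with small p-values in this contrast, so that those named were called was fixed by the naming, and their unnamed fellows were not analysed here. Of 18 astrocyte markers 6 could be named, Slc1a2, Slc1a3, Gja1, Fgfr3, Apoe and Atp1b2, none at 0 counts in any library, and Apoe held the most counts. Their summed level was 2456, 1789 and 3027 CPM in planar culture and 8535, 5231 and 9625 CPM in TE-RMS culture. All but Fgfr3 were called higher in TE-RMS astrocytes, and Fgfr3, which encodes an FGF receptor, was called lower. Of 10 fibroblast markers 5 could be named (Col1a1, Col1a2, Col3a1, Thy1 and Col6a1), none at 0, with Col1a2 holding the most counts. Their sum was 846, 694 and 789 CPM in planar culture and 311, 268 and 296 CPM in TE-RMS culture, and all 5 were called lower. The fibroblast sum thus moved in the direction of the contractile genes, and its part in their difference was not tested. Of 11 markers of smooth muscle and pericytes, Cspg4 could be named, a gene that oligodendrocyte precursors also express. It had 4.02, 4.91 and 5.10 CPM in planar culture and 0.705, 0.862 and 0.0945 CPM in TE-RMS culture, and its part was not tested. The remaining markers of smooth muscle and pericytes, which would separate these cells from astrocytes that express Acta2, were not analysed here. The order of the runs differed among the fibroblast markers: in planar culture Col1a1 and Col1a2 were highest in October, Col3a1 in July, and Thy1 and Col6a1 in September. The 6 genes summed to 2201, 932 and 1231 CPM in planar culture and 469, 368 and 317 CPM in TE-RMS culture, and Tpm1 and Tpm2 made up 72.5% to 92.1% of their counts.

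**Figure D5:**
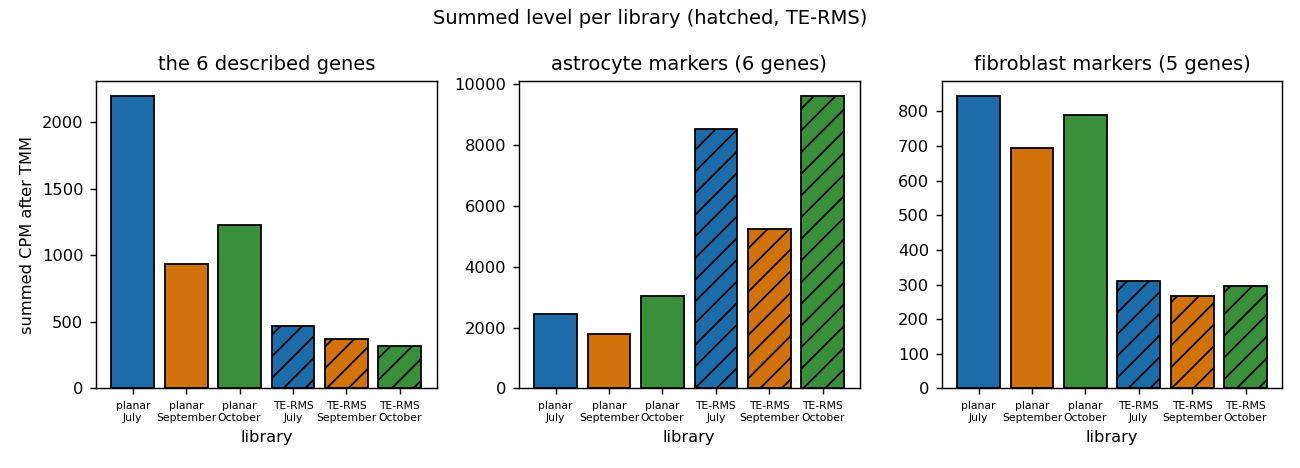
Summed CPM per library of the 6 described genes (left), of 6 named astrocyte markers (middle) and of 5 named fibroblast markers (right), with planar libraries plain and TE-RMS libraries hatched, each panel on its own axis from 0. The 6 genes sum to 932 CPM or more in planar and 469 CPM or less in TE-RMS libraries, the astrocyte markers are higher and the fibroblast markers lower in every TE-RMS library.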

How the data were processed

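Total RNA was extracted, and the sequencing libraries were made from it with a non-stranded mRNA kit. Per the labels and the study's methods, the authors used fastp for trimming, Salmon with Ensembl transcripts of mRatBN7.2 for quantification and tximeta for gene sums. What they deposited are unnormalized estimated counts in whole numbers. Gene names and mRatBN7.2 positions come from the 1517 rows read of the study's list, of which 1503 have a symbol. The authors' statistics there were not used.

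Genes reaching 10 counts over all libraries were normalized with TMM and fitted with edgeR 4.0.16 (R 4.3.3), quasi-likelihood test, Benjamini-Hochberg adjustment over all 16331 genes. The run was a block because the methods pair libraries of one run. Deviations from the condition means correlated at 0.182 to 0.271 across genes within runs and at -0.155 to -0.0657 between runs. Standard errors are the log2 fold change over the square root of F. A prior count of 2 entered log2 CPM and the ratios of each run. The 3 counts of the floor stand for 0.0415 to 0.0529 CPM. Replicates differed beyond sampling noise (chi-square per degree of freedom 284 to 398). DESeq2 1.42.0, limma 3.58.1 and other settings were alternatives. The genes named are the 6 members, the named members of the lists, and the 3 nearest profiles of each member. Members and lists were chosen with earlier results of these data known. Some marker genes are not reported here.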

Additional observations from a re-analysis of the deposited data

How the results depend on the processing

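The log2 fold changes of the 6 genes were below 0 under all 11 alternatives tried (other scalings, filters, prior count and tools, no block, and each run left out). With each run left out, which cannot move a mean of 3 runs far against their own spread and so shows little of stability, they ran from -8.19 to -5.68 for Acta2, -3.18 to -2.69 for Myl9, -1.94 to -1.59 for Myh9, -1.98 to -1.37 for Tpm1, -1.73 to -1.31 for Tpm2 and -2.59 to -2.11 for Lmod1. Without the replicate block edgeR called 1441 genes instead of 3044, and Tpm2 and Lmod1 were not among them. The paired fit changed no other call of the 6 genes. Of the 16 other contractile genes, 12 were called lower without the block (not Actb, Actg1, Ppp1r12c or Tagln2), 14 without September (not Actb or Actg1), and 15 without July, without October and with the stricter filter (not Acta1) and with DESeq2 (not Actb), with all 16 below 0 in each.

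Between runs, edgeR called 525 genes, 224 with at least 10 counts in 3 libraries and 1245 with DESeq2. The adjusted p between runs was 0.0121 for Acta2 with limma-voom and 0.0224 for Tpm1 with DESeq2. With each run left out it ran from 1.58e-10 (without September) to 0.586 for Acta2, 0.00155 to 0.293 for Myl9, 0.00622 to 0.319 for Myh9, 0.0278 (without July) to 0.818 for Tpm1, 6.93e-07 to 0.875 for Tpm2 and 0.000984 to 0.0825 for Lmod1. Leaving out a run leaves 2 libraries of each kind, and the cause of these changes was not tested. At 3 counts, the October TE-RMS value of Acta2 limits how well its fold change is known.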

Other observations

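Other cell type markers moved in both directions. Among microglia markers, Cd68, a lysosomal protein of phagocytes, was called higher, at 1.30, 15.6 and 0.778 CPM (July, September, October) in planar culture and 8.69, 85.4 and 3.75 CPM in TE-RMS culture, and Tmem119 was called lower. Of 8 neuron markers, Map2 and Snap25 are named here and were called higher. Snap25 had 0.0148, 3.92 and 0.0496 CPM in planar culture and 0.459, 60.8 and 3.50 CPM in TE-RMS culture. Its September libraries stood apart in both conditions, the conditions overlapped, and its July and October planar libraries held 1 and 3 counts. None of 7 endothelial markers is named here.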
